A study of Homo sapiens with 60 samples.

Results

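The metallothionein genes MT2A, MT1E, MT1X, MT1B, MT1G, MT1M, and MT1F were followed over 3 metals and 5 time points. They were chosen by name, as 7 of the 62703 genes in the count table, and read in all 60 libraries. The cells were 1321N1, an astrocyte-derived tumor cell line, treated with 2.55 µM sodium metaarsenite, 2.3 µM cadmium chloride, or 20 µM mercury chloride, or left non-treated (nt), for 1.5, 3, 6, 12, or 24 h. Each of the 20 groups had 3 libraries, which the labels call technical triplicates, so that p-values measure the spread between these libraries only. The concentrations were set by the authors to be equally toxic and differ between the metals, so that differences between metals are differences at these doses.

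Metallothioneins are small cysteine-rich proteins that bind zinc and copper in resting cells and chelate cadmium, mercury, and arsenic. Their genes are switched on by metal-responsive transcription factor 1 (MTF1), a zinc finger protein that senses free zinc and binds short metal response elements (MREs) in their promoters. In the brain, astrocytes are known as a main site of MT1 and MT2 expression, whereas MT3 is the form linked to neurons. The zinc exporter SLC30A1 is another well-known MTF1 target. RNA was sequenced from the 3′ end of each transcript, so that counts do not grow with transcript length and were not divided by it. Levels are given as CPM, the counts scaled to library size after TMM, the edgeR correction for library composition.

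The libraries held between 2215276 and 4404609 counts on genes. Of 9 astrocyte markers, VIM, CD44, and SOX9 were counted in 60 of 60 libraries and SLC1A3 in 55, at no more than 4.08 CPM. SLC1A2 was counted in 13 libraries (at most 5 counts), GFAP and S100B reached at most 3 and 1 counts in a library, and AQP4 and ALDH1L1 were at 0. Of the neuronal markers, SYT1 was counted in 60 libraries at 5.83 to 21.7 CPM, whereas RBFOX3, SNAP25, and TUBB3 had a median of 0 CPM and at most 3, 7, and 2 counts. Markers of oligodendrocytes and microglia had at most 7 counts. In a bulk sample, fewer expressing cells and less RNA per cell cannot be told apart.

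The 7 genes lie in 1 cluster on chromosome 16 of GRCh38. On the plus strand are MT2A (ENSG00000125148, 56608584 to 56609497), MT1E (ENSG00000169715, 56625475 to 56627112), MT1M (ENSG00000205364, 56632659 to 56633981), MT1B (ENSG00000169688, 56651886 to 56653204), MT1F (ENSG00000198417, 56657731 to 56660698), and MT1X (ENSG00000187193, 56682470 to 56684196). MT1G (ENSG00000125144, 56666730 to 56668065) lies on the minus strand. All 7 are annotated as protein coding. Because members are alike in sequence, the last 200 bases of each transcript, where 3′ reads start, were compared with all other transcripts in stretches of 50 bases. None of these stretches of MT1X, MT1B, or MT1F occurred in another gene. The shared part was 2.65% for MT2A, 3.31% for MT1E, 7.28% for MT1G, and 19.2% for MT1M. Upstream of these last bases, 40.8% of the MT1X transcript and 30.5% of the MT1B transcript also lie in exons of another gene on the same strand, where the counting drops reads.

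The promoters of 3 of the 7 members, MT2A, MT1X, and MT1B, were in the RefSeq table (GRCh38.p14) used here. They are shown because they hold matches to the core of the element through which MTF1 acts. The 250 bases before the start of each gene are given 5′ to 3′ on the plus strand, with capitals marking the MRE core (TGCACNC or TGCGCNC, either strand). MT1H is a family member of the same cluster that is no part of the 7, shown beside them because it had the most matches. The windows are chr16:56608334-56608583, chr16:56682220-56682469, chr16:56651636-56651885, and chr16:56669564-56669813.
MT2A: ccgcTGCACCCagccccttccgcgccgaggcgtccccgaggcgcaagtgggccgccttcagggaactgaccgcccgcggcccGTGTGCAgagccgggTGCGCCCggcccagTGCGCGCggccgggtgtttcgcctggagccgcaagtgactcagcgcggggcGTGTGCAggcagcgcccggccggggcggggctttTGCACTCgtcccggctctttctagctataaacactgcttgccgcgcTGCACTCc
MT1X: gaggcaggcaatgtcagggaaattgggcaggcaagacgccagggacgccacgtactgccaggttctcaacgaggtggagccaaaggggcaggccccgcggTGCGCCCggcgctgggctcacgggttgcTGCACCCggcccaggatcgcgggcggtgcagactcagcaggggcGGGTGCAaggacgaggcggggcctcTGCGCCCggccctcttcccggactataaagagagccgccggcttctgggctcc
MT1B: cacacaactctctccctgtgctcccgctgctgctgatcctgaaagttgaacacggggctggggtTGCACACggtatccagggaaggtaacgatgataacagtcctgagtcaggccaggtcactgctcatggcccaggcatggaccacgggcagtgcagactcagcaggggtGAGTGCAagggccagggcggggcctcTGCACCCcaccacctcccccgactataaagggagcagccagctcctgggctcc
MT1H: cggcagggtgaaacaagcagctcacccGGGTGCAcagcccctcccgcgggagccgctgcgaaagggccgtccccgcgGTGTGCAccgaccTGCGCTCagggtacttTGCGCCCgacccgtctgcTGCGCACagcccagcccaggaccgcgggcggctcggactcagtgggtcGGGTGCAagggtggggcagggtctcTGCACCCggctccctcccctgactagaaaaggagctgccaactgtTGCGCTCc
The MRE core matched 7 times for MT2A, 4 times for MT1X, 3 times for MT1B, and 8 times for MT1H. In windows not printed, it had 1 match for SLC30A1, 3 for MT4 (0 counts over all libraries), and 0 for MTF1. Of 35116 promoters of this length, 24.8% held at least 1 match, 1.58% at least 3, 0.37% at least 4, 0.0313% at least 7, and 0.0171% at least 8. A TATA box (TATAAA, plus strand or minus strand) was found once each in MT2A, MT1X, and MT1B and in 10.7% of all promoters, but not in the MT1H window. The core of the antioxidant response element (TGACNNNGC, either strand) matched once in each of the 3 members and in 10.9% of promoters. These matches are descriptions of sequence. MT1H had 4 counts over the 60 libraries.

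Of the 7 members, 3 were counted in all libraries. MT2A, MT1E, and MT1X had counts in 60 of 60 libraries and were above the floor in every group. The floor was set at 3 counts or fewer in each library of a group. MT1B was at the floor in 17 of 20 groups and MT1G in 17 of 20, and in both the groups above it were cadmium at 6, 12, and 24 h. MT1M had 1 count in 1 library, and MT1F had 0 counts in all 60. Of the 7 members, 4 passed the filter on low counts (MT2A, MT1E, MT1X, and MT1B), and MT1B passed only through the cadmium libraries where it is high. Its test after this filter is therefore not used as a result, and enters only counts that say so. Members are otherwise counted below among MT2A, MT1E, and MT1X.

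MT2A was the most abundant member. In non-treated cells its mean level was 2596 ± 11.6 CPM (SD, n = 3) at 1.5 h, 2591 ± 36.7 at 3 h, and 2586 ± 53.0 at 6 h. It was 3788 ± 1240 at 12 h and 1749 ± 101 at 24 h. The 12 h libraries spread from 2445 to 4888 CPM, and those at 24 h were all below those of every other time point. MT1E lay well below MT2A, between 163.7 and 257.8 CPM as group means. MT1X was lower again, between 6.06 and 9.12 CPM. In all 20 groups the order was MT2A above MT1E above MT1X.

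Without metal, 1 of the 3 members differed between time points. MT1E was lower at 24 h than at 1.5 h, with a log2 fold change (LFC) of -0.45 (SE, its standard error, 0.11, adjusted p = 0.00922 from edgeR), and the 3 libraries of each group did not overlap. Here 1.45% of the 12341 genes tested were lower. Leaving out nt 1.5 h replicate 1 or nt 24 h replicate 1 ended this call (adjusted p = 0.129 and 0.0559). MT2A differed from 1.5 h by 0.54 at 12 h (adjusted p = 0.0826, past the threshold at 0.0109 without nt 12 h replicate 3) and by -0.57 at 24 h (adjusted p = 0.0757). Of all genes tested, 0%, 0.211%, and 2.34% were higher and 0.122%, 0.276%, and 1.75% lower at 3, 6, and 12 h than at 1.5 h. At 3 and 6 h, 0 of 3 members differed from 1.5 h in edgeR or DESeq2, also at an unadjusted p under 0.05, and at 12 h 1 did so unadjusted. This drift enters each time-matched comparison.

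Cadmium raised MT2A, MT1E, and MT1X past the threshold from 3 h on, and above the level of both other metals. The MT2A libraries read 2991, 3243, and 3140 CPM at 1.5 h, then 10431, 11373, and 5528 CPM at 3 h. They reached 11254, 11592, and 11721 CPM at 6 h, 24898, 22626, and 24261 CPM at 12 h, and 21532, 22031, and 24878 CPM at 24 h. All cadmium libraries lay above the time-matched non-treated ones, and the third library at 3 h was lower than the other two. For MT1E, the cadmium libraries read 291, 294, and 286 CPM at 1.5 h, 1299, 1431, and 1186 CPM at 3 h, and 3165, 3100, and 3437 CPM at 6 h. At 12 h they read 5833, 7341, and 7763 CPM, and at 24 h 3764, 3933, and 3666 CPM. MT1X followed the same course, with group means of 13.3 ± 0.94 CPM at 1.5 h, 64.4 ± 11.5 at 3 h, and 169 ± 4.44 at 6 h, then 370 ± 25.5 at 12 h and 258 ± 14.1 at 24 h (SD, n = 3). For MT1E and MT1X, no 24 h library reached the lowest 12 h library.

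**Figure D1:**
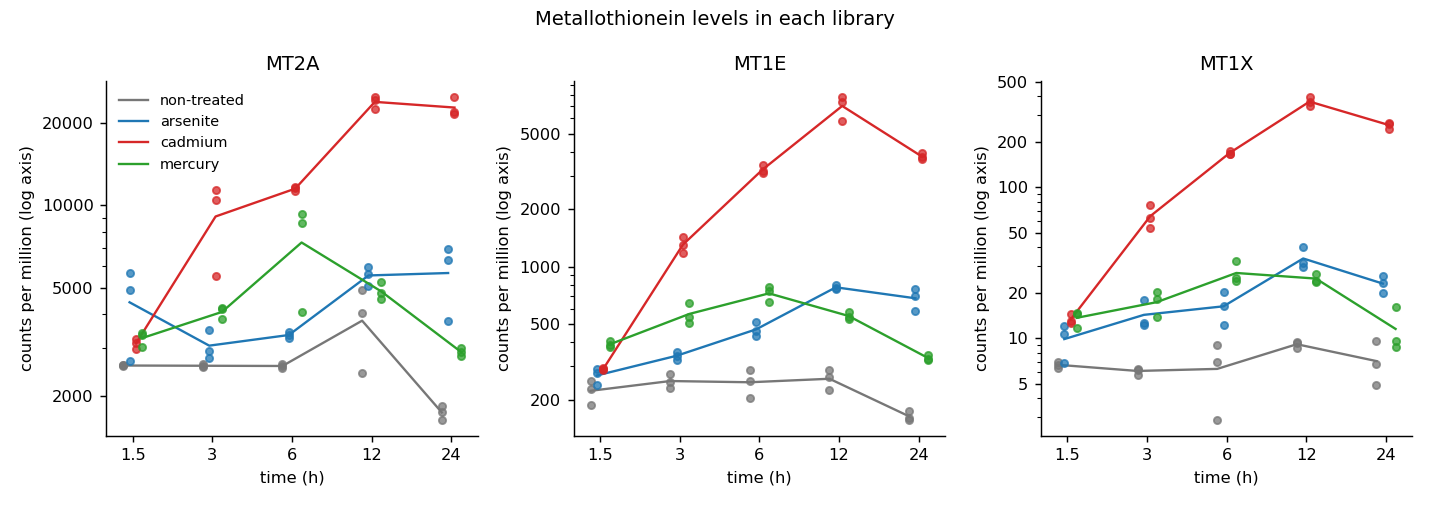
Level of MT2A, MT1E, and MT1X in CPM (log axis) against time in h, with 1 point per library, colors for the treatment, and lines through the group means (n = 3). From 3 h, all cadmium points (red) of MT1E and MT1X lie above those of every other treatment, and mercury (green) peaks at 6 h in all 3 genes.

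Against time-matched non-treated cells, 0 of the 3 members passed with cadmium at 1.5 h in edgeR (0% of all genes tested were higher), with 2 members at an unadjusted p under 0.05 and 0 in DESeq2. The LFC there was 0.27 for MT2A, 0.38 for MT1E, and 0.99 for MT1X (adjusted p = 0.74, 0.399, and 0.377 from edgeR), and no groups overlapped. MT1E and MT1X passed without a filter (adjusted p = 0.022 and 0.0282) and against the mean of all 5 non-treated groups (adjusted p = 0.0103 and 0.00144). MT2A and MT1E passed with only the 6 libraries compared (adjusted p = 0.0056 and 0.0202). All 3 were higher at 3 h (0.203% of all genes tested), 6 h (1.6%), 12 h (5.19%), and 24 h (1.56%). None was lower, also at an unadjusted p under 0.05, while among all genes 0%, 0%, 0.446%, 2.99%, and 0.616% were lower in the order of the time points. MT1X changed by the largest factor among the 3 members above the floor in every group, with an LFC of 4.80 at 6 h, 5.34 at 12 h (SE 0.19, adjusted p = 8.22e-35 from edgeR), and 5.17 at 24 h, or 40.5-fold at 12 h. MT1E rose by an LFC of 3.71, 4.76 (SE 0.12, adjusted p = 1.57e-43), and 4.53 at these times, or 27.1-fold at 12 h. MT2A rose by 2.16 at 6 h, 2.66 at 12 h, and 3.71 at 24 h (SE 0.21, adjusted p = 1.32e-23), or 13.0-fold at 24 h.

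The MT2A fold change was higher at 24 h than at 12 h although its level was not. The mean level with cadmium was 23930 ± 1172 CPM at 12 h and 22810 ± 1805 CPM at 24 h, while the non-treated mean was 3788 CPM at 12 h and 1749 CPM at 24 h. Set against the mean of all 5 non-treated groups, a comparison added after the data were seen, the MT2A LFC with cadmium was 3.21 at 12 h and 3.14 at 24 h. On the same footing MT1E had 4.95 and 4.07, and MT1X had 5.73 and 5.21.

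MT1B and MT1G were seen above the floor only with cadmium. MT1B had 12, 13, and 9 counts at 6 h, 9, 14, and 16 counts at 12 h, and 18, 25, and 24 counts at 24 h. Outside these 9 libraries it had 1 count in each of 3 libraries. Against the time-matched non-treated floor, MT1B was at least 3.61-fold higher at 6 h, at least 5.58-fold at 12 h, and at least 7.76-fold at 24 h. An edgeR fit without a filter on low counts gave MT1B an adjusted p = 0.0516 with 6 h of cadmium, 0.000617 with 12 h, and 0.000431 with 24 h. MT1G had 0, 4, and 4 counts in the 6 h libraries, 5, 5, and 4 in those of 12 h, 5, 6, and 10 in those of 24 h, and 3 counts in 1 cadmium library of 3 h. All 46 of its counts were in cadmium libraries. It was at least 2.08-fold higher at 12 h and at least 2.52-fold at 24 h, and did not pass the filter, so that it has no test here. In that fit its adjusted p was 0.128 at 12 h and 0.233 at 24 h.

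**Figure D2:**
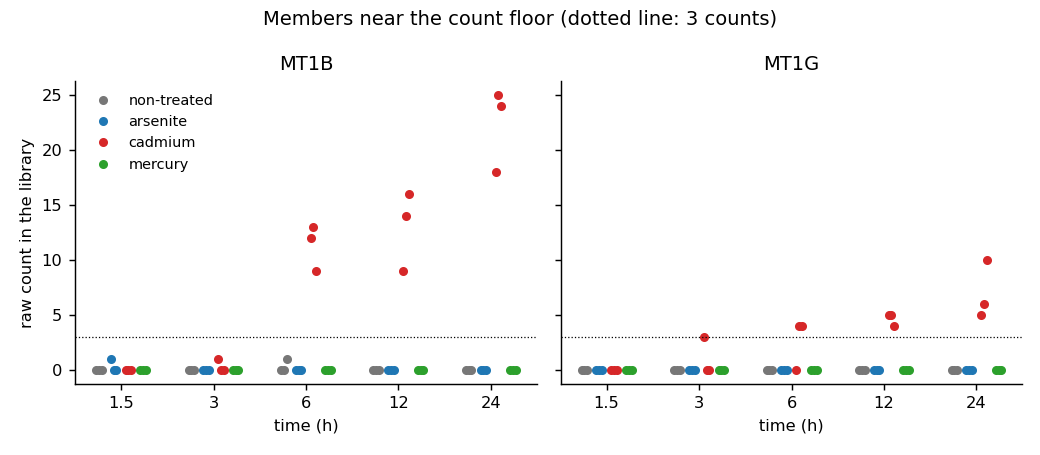
Raw counts of MT1B and MT1G per library against time in h, with 1 point per library, colors for the treatment, and a dotted line at the floor of 3 counts. MT1B exceeds the line only in the 9 cadmium libraries from 6 h, where it has 9 to 25 counts, and MT1G reaches at most 10 counts.

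With mercury, MT1E was higher already after 1.5 h, and the mean levels peaked after 6 h. At 1.5 h, MT1E read 407, 386, and 379 CPM with mercury against 251, 229, and 188 CPM in non-treated cells, higher by an LFC of 0.81 (SE 0.11, adjusted p = 1.19e-07 from edgeR), and the groups did not overlap. MT1X passed at 1.5 h too (LFC 1.03, adjusted p = 0.0267), but not without any of the 3 nt 1.5 h libraries or without mercury 1.5 h replicate 1 or 3 (adjusted p = 0.116 to 0.165). With mercury, 2 of 3 members were higher at 1.5 h (0.478% of all genes tested), 2 at 3 h (1.39%), and 3 at 6 h (4.49%), then 2 at 12 h (8.9%) and 3 at 24 h (13.9%). None was lower, also at an unadjusted p under 0.05, against 0.0891%, 0.154%, 2.99%, 7.16%, and 13.9% of all genes in the order of the time points. The mean level peaked at 6 h in all 3 genes, at 7318 ± 2829 CPM for MT2A, 724 ± 64.9 CPM for MT1E, and 27.0 ± 4.72 CPM for MT1X (SD, n = 3). The LFC at 6 h was 1.50 for MT2A (SE 0.19), 1.55 for MT1E (SE 0.11), and 2.15 for MT1X (SE 0.24), with adjusted p = 8.48e-09, 3.67e-19, and 1.48e-10.

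The 3 MT2A libraries with 6 h of mercury read 8590, 9288, and 4076 CPM, so that the third was below the others. At 3 h the LFC of MT2A was 0.65 (adjusted p = 0.053), and at 12 h 0.36 (adjusted p = 0.199) with overlapping groups. At 24 h, the LFC was 0.74 for MT2A (adjusted p = 0.00169), 1.02 for MT1E (adjusted p = 7.59e-12), and 0.68 for MT1X (adjusted p = 0.0358). Against all 5 non-treated groups MT2A was 0.66 at 3 h (adjusted p = 0.000601), 0.91 at 12 h (adjusted p = 1.76e-07), and 0.17 at 24 h (adjusted p = 0.373), so that all 3 calls changed. The MT1X call at 24 h was lost without nt 24 h replicate 2 or 3 or mercury 24 h replicate 3 (adjusted p = 0.0924 to 0.371), and its libraries of 8.79, 9.58, and 16.1 CPM overlapped the non-treated ones of 9.50, 6.75, and 4.89 CPM.

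With arsenic, MT1E passed from 6 h and MT1X from 3 h, and MT2A at 24 h. MT1E read 277, 290, and 238 CPM at 1.5 h, 324, 339, and 358 CPM at 3 h, and 435, 461, and 511 CPM at 6 h, then 776, 797, and 764 CPM at 12 h and 704, 759, and 582 CPM at 24 h. At 12 and 24 h all of these exceeded every non-treated library. Its LFC was 0.27 at 1.5 h, 0.44 at 3 h (adjusted p = 0.0611), 0.92 at 6 h (adjusted p = 1.59e-09), 1.60 at 12 h (adjusted p = 1.82e-19), and 2.06 at 24 h (SE 0.11, adjusted p = 7.46e-25 from edgeR). MT1X had an LFC of 1.24 at 3 h (adjusted p = 0.00926), 1.42 at 6 h, 1.88 at 12 h (adjusted p = 1.25e-10), and 1.69 at 24 h. The call at 3 h was lost without any of the 3 nt 3 h libraries or arsenic 3 h replicate 3 (adjusted p = 0.0649 to 0.336) and with only the 6 libraries compared (adjusted p = 0.198).

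MT2A passed with arsenic at 24 h, with libraries of 6901, 6297, and 3778 CPM against 1847, 1754, and 1645 CPM, higher by 1.69 (SE 0.19, adjusted p = 1.5e-10). At 1.5 h, its libraries read 4904, 5664, and 2698 CPM, an LFC of 0.77 (adjusted p = 0.0891) that became 1.03 (adjusted p = 0.00148) without arsenic 1.5 h replicate 3. At 12 h the LFC was 0.55 (adjusted p = 0.0843) and became 0.77 (adjusted p = 0.0205) without nt 12 h replicate 1. Against all 5 non-treated groups MT2A passed at both times, with 0.78 at 1.5 h (adjusted p = 0.00033) and 1.10 at 12 h (adjusted p = 1.35e-09). At 24 h its LFC against these groups was 1.13 (adjusted p = 2.39e-10 from edgeR). With arsenic, 0 of 3 members passed in edgeR at 1.5 h (0.0648% of all genes tested were higher), with 3 at an unadjusted p under 0.05 and 1 in DESeq2. At 3 h 1 was higher (0.122%), at 6 h 2 (0.592%), at 12 h 2 (2.37%), and at 24 h 3 (6.54%). None was lower, also at an unadjusted p under 0.05, against 0.0081%, 0.0162%, 0.308%, 1.74%, and 7.75% of all genes in the order of the time points.

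**Figure D3:**
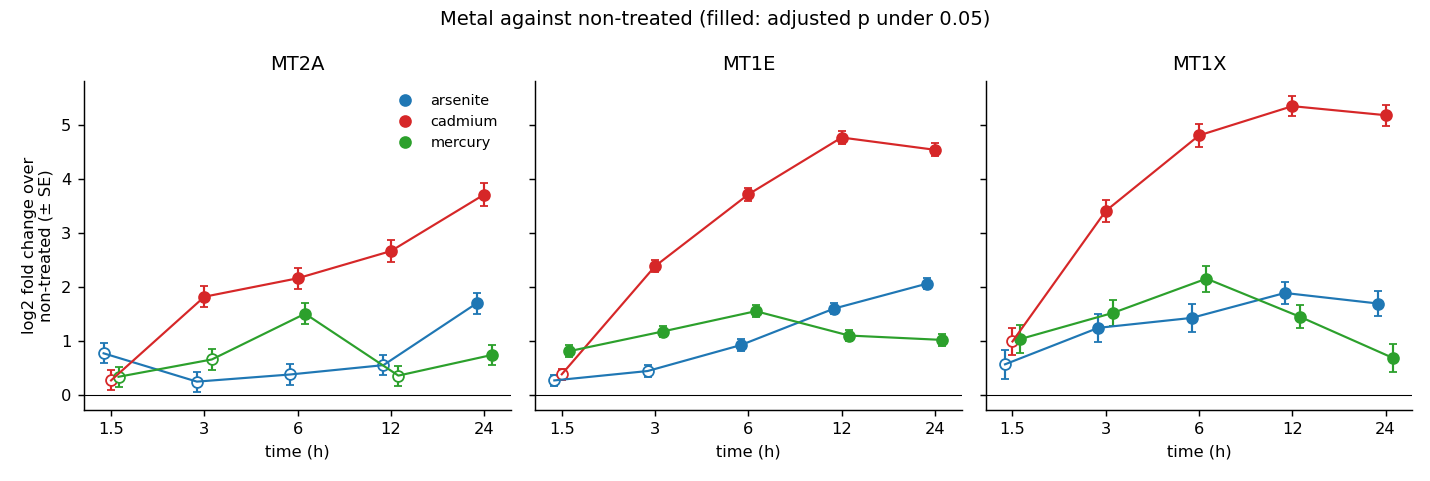
LFC of MT2A, MT1E, and MT1X for each metal over time-matched non-treated libraries, against time in h, with bars for the SE (3 against 3 libraries) and filled symbols where the adjusted p is under 0.05. All values are above 0, cadmium reaches 5.34 for MT1X at 12 h, and arsenic and mercury change places between 6 and 24 h for MT1E.

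The metals were then compared with each other in libraries of the same time point. At 1.5 h, mercury exceeded arsenic in MT1E (arsenic minus mercury -0.54, adjusted p = 0.000952) where 0.737% of all genes tested were lower and 0.818% higher. Mercury also exceeded cadmium in MT1E (cadmium minus mercury -0.43, adjusted p = 0.021) where 0.543% were lower and 0.122% higher. The latter call was lost when any of the 6 libraries was left out (adjusted p = 0.0545 to 0.147). Between arsenic and cadmium 0 of 3 members differed at 1.5 h in edgeR (0% of all genes higher and 0% lower), with 1 at an unadjusted p under 0.05 and 0 in DESeq2. The 95% intervals of the LFC were 0.13 to 0.87 for MT2A, -0.32 to 0.10 for MT1E, and -0.88 to 0.03 for MT1X. Without arsenic 1.5 h replicate 3, MT2A was higher with arsenic than with cadmium (0.76, adjusted p = 0.0412) and higher than with mercury (0.69, adjusted p = 0.0228).

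From 3 h on, cadmium exceeded both other metals for MT2A, MT1E, and MT1X at every time. Lower with arsenic than with cadmium were 3 of 3 at 3 h (0.122% of all genes tested), 6 h (1.01%), 12 h (3.87%), and 24 h (5.97%). Higher with cadmium than with mercury were 3 of 3 at 3 h (0.494%), 6 h (1.64%), 12 h (1.48%), and 24 h (9.7%). In the opposite direction 0 members passed, beside 0.0162%, 0.17%, 1.92%, and 4.2% of all genes for arsenic over cadmium and 1.29%, 2.14%, 1.81%, and 10.3% for mercury over cadmium at 3 to 24 h. The smallest of these differences was MT2A at 6 h between cadmium and mercury, 0.66 (SE 0.19, adjusted p = 0.0279), lost without any of the 3 cadmium 6 h libraries or mercury 6 h replicate 3 (adjusted p = 0.0626 to 0.275, LFC 0.37 without the last). The largest was MT1X at 24 h between cadmium and mercury, 4.49 (SE 0.18, adjusted p = 1.61e-30).

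Arsenic and mercury exchanged their order in MT1E, which was lower with arsenic than with mercury by an LFC of -0.73 at 3 h (adjusted p = 8.85e-07) and -0.63 at 6 h (adjusted p = 1.35e-05), and higher by 0.50 at 12 h (adjusted p = 0.000482) and 1.04 at 24 h (adjusted p = 3.1e-12). At 24 h, MT2A (LFC 0.96, adjusted p = 0.000153) and MT1X (LFC 1.01, adjusted p = 0.000454) were also higher with arsenic. At 6 h, MT2A was lower with arsenic by -1.12 (adjusted p = 2.09e-05), and MT1X by -0.73 (adjusted p = 0.0137), the latter not without arsenic 6 h replicate 1 or 2 or mercury 6 h replicate 2 (adjusted p = 0.0572 to 0.154). Lower with arsenic were 1 of 3 members at 3 h (1.67% of all genes tested) and 3 at 6 h (3.09%), and higher with arsenic were 1 at 12 h (2.53%) and 3 at 24 h (4.59%). The opposite direction held 0.219%, 1.44%, 4.42%, and 6.78% of all genes at these times and 0 members.

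Whether the effect of a metal changed from one time point to the next was tested as a difference of LFCs. With cadmium, 3 of 3 members rose between 1.5 and 3 h (0.0729% of all genes tested), by 1.55 for MT2A, 2.00 for MT1E, and 2.41 for MT1X. Between 3 and 6 h, 2 of 3 rose (0.276%), MT1E by 1.33 and MT1X by 1.40, between 6 and 12 h 1 rose (0.211%), MT1E by 1.05, and between 12 and 24 h 1 rose (0.081%), MT2A by 1.05. With arsenic, 1 of 3 rose between 6 and 12 h (0.146%), MT1E by 0.68, and 1 between 12 and 24 h (0.656%), MT2A by 1.14. For the latter, the mean level with arsenic was 5544 CPM at 12 h and 5659 CPM at 24 h. The non-treated mean was 3788 CPM at 12 h and 1749 CPM at 24 h. With mercury, 1 of 3 fell between 6 and 12 h (1.15%), MT2A, with a difference of -1.14. With a library left out, the MT1X step from 3 to 6 h and the MT2A step from 12 to 24 h of cadmium were lost in 9 and 11 of 12 fits (adjusted p = 0.0527 to 0.246 and 0.0545 to 0.271), and the 3 steps with arsenic and mercury in 3 or 4 of 12 (adjusted p = 0.0551 to 0.155). For the other steps, with arsenic 0.0324% and 0.0567% of all genes tested were higher and 0% and 0.0081% lower (1.5 to 3 and 3 to 6 h). With mercury 0.081%, 0.227%, and 0.3% were higher and 0.0324%, 0.0972%, and 0.324% lower (1.5 to 3, 3 to 6, and 12 to 24 h). In these 5 steps 0 members passed in edgeR and in DESeq2, with 5 member values at an unadjusted p under 0.05 in edgeR. One of them, MT2A with mercury between 3 and 6 h (0.85, adjusted p = 0.18), passed without mercury 6 h replicate 3 (adjusted p = 0.00856).

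The members did not change by equal factors. The log2 ratio of 2 members' counts within a library, with 1 count added to each, needs no scaling between libraries, and was compared between the 15 metal and 15 non-treated libraries by an exact two-sided permutation test within time points, adjusted over the 9 tests. With cadmium, MT2A fell relative to MT1X by 1.80 on the log2 scale, with adjusted p = 5.62e-06, where p was the smallest that the permutations allow (6.25e-07). MT2A to MT1E differed by -1.04 (permutation, adjusted p = 7.5e-06) and MT1X to MT1E by 0.76 (permutation, adjusted p = 5.62e-06). By time, MT2A to MT1X differed by -2.66 (6 h), -2.58 (12 h), and -1.48 (24 h). The MT1E share of the members' counts was 22.3 ± 3.06% (SD, n = 3) at 12 h of cadmium against 6.70 ± 1.67% in non-treated cells, and the MT1X share was 1.18 ± 0.104% against 0.240 ± 0.0726%.

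Mercury gave smaller differences, -0.63 for MT2A to MT1X (permutation, adjusted p = 0.000681) and -0.42 for MT2A to MT1E (permutation, adjusted p = 0.000235). For arsenic they were -0.62 (permutation, adjusted p = 0.00331) and -0.35 (permutation, adjusted p = 0.0145). These are means over the time points, and at 1.5 h of arsenic both had the other sign, 0.20 for MT2A to MT1X and 0.43 for MT2A to MT1E. MT1X to MT1E missed the threshold with arsenic (0.27, permutation, adjusted p = 0.108) and mercury (0.21, permutation, adjusted p = 0.193), although it passed in both without the replicate 1 libraries (adjusted p = 0.0324, permutation). Without the replicate 3 libraries, MT2A to MT1X was -0.38 with arsenic and -0.42 with mercury, and MT2A to MT1E was -0.29 with arsenic, none of them past the threshold (permutation, adjusted p = 0.148, 0.0764, and 0.166).

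**Figure D4:**
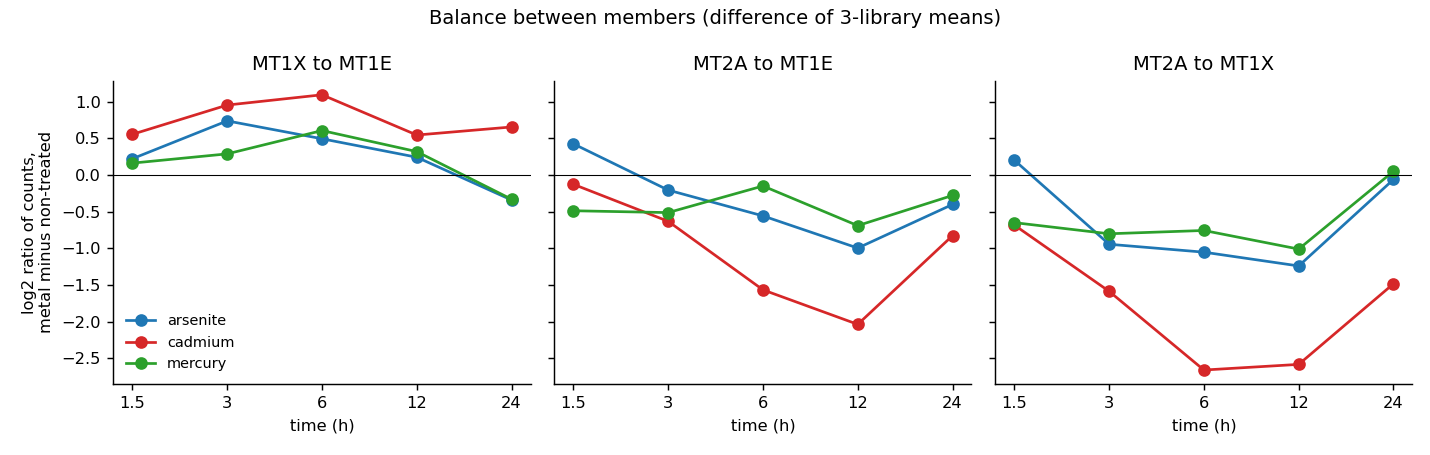
Difference in the log2 ratio of counts between metal and non-treated libraries (means of 3 libraries each) against time in h, for 3 pairs of members. With cadmium (red), MT2A falls against MT1X to -2.66 at 6 h, and with arsenic and mercury that difference is near 0 at 24 h (-0.06 and 0.05).

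Summed over the 7 members, metallothionein transcripts were 0.194 to 0.405% of all gene counts as group means in non-treated cells. With cadmium they were 1.04 ± 0.311% at 3 h and 1.50 ± 0.0269% at 6 h, then 2.98 ± 0.0993% at 12 h and 2.64 ± 0.105% at 24 h (SD, n = 3). The highest mean was 0.644% with arsenic, at 24 h, and 0.770% with mercury, at 6 h. MT2A was the most counted gene of all in each of the 3 libraries with 24 h of cadmium and at rank 1 or 2 at 12 h, against rank 11 to 63 in non-treated cells. MT1E reached rank 4 to 10 at 12 h of cadmium, against 568 to 766 in non-treated cells at that time. MT2A made up 74% of the CPM added by cadmium at 12 h, MT1E 24.7%, and MT1X 1.33%.

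MT2A was uneven between replicates in some groups. The coefficient of variation between the 3 libraries exceeded 20% in 5 of 20 groups for MT2A (nt 12 h, arsenic 1.5 and 24 h, cadmium 3 h, and mercury 6 h), up to 38.7%, and in 0 of 20 groups for MT1E, with a maximum of 17.1%. Its median over the 20 groups was 6.2% for MT2A and 8.2% for MT1E. In all of these 5 groups replicate 3 was the lowest for MT2A. The cause was not tested. MT1X also spread in some groups, at far lower counts. Its mean was 6.26 ± 3.09 CPM in nt 6 h (9 to 22 counts) and 7.05 ± 2.32 CPM in nt 24 h (17 to 37 counts). With 24 h of mercury it was 11.5 ± 4.04 CPM (28 to 49 counts, SD, n = 3).

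The genes most like the members over the 20 group means were found by Pearson correlation of log2 CPM with the mean profile of MT2A, MT1E, and MT1X, among 9495 genes. They were ENSG00000289942 (r = 0.954), ANKRD1 (0.902), CSRP1 (0.845), SLC30A1 (0.841), and GNG4 (0.827), with SLC30A1 and CSRP1 also on the MTF1 list, and the group means share the non-treated libraries and the cadmium groups that dominate the range. MT2A, MT1E, and MT1X correlated with each other at 0.967 to 0.989 over the same 20 means. ANKRD1, a muscle ankyrin repeat protein, rose with cadmium by an LFC of 1.58 at 12 h (adjusted p = 1.15e-17 from edgeR), from 62.9 ± 1.58 to 187 ± 12.4 CPM (SD, n = 3). GNG4, a G protein subunit, missed the threshold at 12 h of cadmium (LFC 0.63, adjusted p = 0.0571), with 24.1 ± 7.19 CPM at 12 h of cadmium against 15.3 ± 0.747 CPM.

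ENSG00000289942 is annotated as a transcript of 115 bases on chromosome 4 (68376551 to 68376665 of GRCh38, plus strand), 45 bases after MT2P1 (68376323 to 68376505), a metallothionein 2 pseudogene. Leaving out its closing run of A, 96 of its 99 bases are identical to bases 302 to 400 of the 401-base MT2A transcript (97%), against 77.6 to 82.4% with the other 6 members. At 12 h it had 126 ± 14.9 CPM in non-treated cells and 1183 ± 273 CPM with cadmium, and at 24 h 109 ± 8.27 and 1440 ± 57.5 CPM (SD, n = 3), with an LFC of 3.23 and 3.72. Its counts were 2.39 to 9.17% of those of MT2A in each library, and whether its reads come from MT2A was not tested. In nt 12 h, where the MT2A libraries spread from 2445 to 4888 CPM, it had 126 ± 14.9 CPM, with replicate 3 (119 CPM) between the others. In the other groups where MT2A was uneven, replicate 3 was the lowest for MT2A but the highest for ENSG00000289942. Its replicate 3 read 182 CPM with 1.5 h and 318 CPM with 24 h of arsenic, 436 CPM with 3 h of cadmium, and 332 CPM with 6 h of mercury. Over the 20 groups its coefficient of variation had a median of 10.9%, against 6.2% for MT2A. It exceeded 20% with 1.5 and 12 h of cadmium, where that of MT2A did not. The counts of both copies were also added to MT2A, an alternative chosen after the data were seen. Of 147 member values, here with 9 of MT1B, 146 stayed on their side of the threshold. MT2A with 3 h of mercury passed (LFC 0.66, adjusted p = 0.034).

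The list of MTF1 targets held 12 genes, with MTF1 itself among them, and 10 of the 12, MTF1 included, were tested. SLC30A1 passed, higher, in 13 of 15 comparisons, in all from 3 h and with mercury at 1.5 h. Its LFC with cadmium was 1.89 at 3 h, 2.67 at 6 h (SE 0.13, adjusted p = 8.36e-26 from edgeR), 2.46 at 12 h, and 1.82 at 24 h. With mercury it had 1.19 at 1.5 h, 1.59 at 3 h, and 0.94 at 12 h, and with arsenic 0.86 at 3 h and 1.17 at 6 h. Those of the other targets that passed did so from 6 h on. The selenoprotein genes SELENOW and SELENOH, also on the list, passed against non-treated cells with no metal at any time. CSRP1, a LIM domain protein, was higher with cadmium at 6, 12, and 24 h (LFC 0.55, 0.89, and 0.60), with mercury at 12 h (0.62), and with arsenic at 24 h (0.41). GCLC, the catalytic subunit of glutamate-cysteine ligase in glutathione synthesis, was higher with mercury at 12 and 24 h (1.38 and 0.97), with cadmium at 12 h (0.96), and with arsenic at 24 h (0.74).

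The zinc importer SLC39A10 was lower with cadmium at 12 h (LFC -1.63, adjusted p = 0.000249) and 24 h (-1.14, adjusted p = 0.00966) and with arsenic at 24 h (-0.88, adjusted p = 0.019). MTF1 itself was higher with mercury at 12 h (0.41, adjusted p = 0.0433) and 24 h (0.82, adjusted p = 6.64e-06). NDRG1, a stress-responsive gene, was higher with mercury at 12 and 24 h (1.89 and 2.30), and PGF, a placental growth factor, with mercury at 6 and 24 h (0.80 and 0.91) and arsenic at 12 h (0.65), while KCNN4, a potassium channel, was lower with arsenic at 24 h (-0.83). At 24 h, the list had 2 higher and 1 lower of 10 with cadmium (1.56% and 0.616% of all genes tested), 3 higher and 2 lower with arsenic (6.54% and 7.75%), and 5 higher with mercury (13.9% of all genes tested were higher and 13.9% lower), and its median LFC was 0.11, 0.06, and 0.60, beside -0.01, 0, and -0.02 over all genes tested.

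Of 8 listed genes next to the cluster on chromosome 16, 6 were tested. HERPUD1, an endoplasmic reticulum stress gene, was higher with all metals at 6 and 12 h, by 0.65 and 1.44 with cadmium, 0.85 and 1.09 with arsenic, and 1.70 and 1.80 with mercury. At 24 h it was higher with arsenic (1.66, adjusted p = 1.4e-14) and mercury (1.69, adjusted p = 2.79e-15), and the median LFC of the 6 was 0.29 with both, beside 0 and -0.02 over all genes tested. At 24 h of cadmium, where the members were 13.0-fold (MT2A) to 36.1-fold (MT1X) higher, HERPUD1 had an LFC of 0.44 (adjusted p = 0.132), and the median LFC of the 6 was -0.06 beside -0.01 over all genes tested. OGFOD1 was higher with arsenic and mercury at 12 and 24 h (LFC 0.38 to 0.60), and NUP93 was lower in these 4 comparisons and with cadmium at 12 h (LFC -0.44 to -0.31). Of 14 other metallothionein names, 0 passed the filter on low counts. MT3 had 2 counts over all libraries, MT1H 4, MT1XP1 43, and MT2P1 124, whereas MT1A and MT4 had 0.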

How the data were processed

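RNA of 1321N1 cells from 20 groups of 3 libraries was read from 3′ ends. Per the authors, single-end reads were mapped with STAR (version 2.7.9a, GRCh38), and GenomicAlignments counted primary alignments by strand over exons of a basic GENCODE gene set, leaving out reads that overlap more than 1 gene. They deposited raw whole-number counts for 62703 genes. The 92 spike-in rows held 0 counts.

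One edgeR model (4.0.16, under R 4.3.3) held all libraries, with TMM scaling (factors 0.934 to 1.03) and 1 coefficient per group, on the 12341 genes kept by filterByExpr (minimum count 10, minimum total 15). Quasi-likelihood p-values were adjusted (Benjamini-Hochberg) separately in 46 comparisons, and 0.05 was the threshold. A fold from a group at the floor was computed against 3 counts per library. Genes named are the members, the list genes that passed a test, SELENOW and SELENOH of the same list, MTF1, SLC30A1, and the 5 genes most like the members. The members and lists were chosen with earlier results of these data known.

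On simulated counts for the comparison of cadmium with nt at 24 h (12093 genes), 42 of 50 genes changed 2-fold and 50 of 50 changed 4-fold were called. Of the unchanged genes, 9 were called as well. The counts were drawn with the spread that this model estimated, so that they do not test that spread. Genes near the floor were not among those changed. Replicates were not copies (lowest chi-square per degree of freedom 2). Deviations of same-numbered libraries correlated at a median of -0.008, and replicate numbers were therefore not treated as pairing. Gene positions from GENCODE 44 matched 99.09% of the table, and promoters came from RefSeq. Alternatives were DESeq2 1.42.0, other scaling, filters, thresholds and pseudocounts, and leaving out each library.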

Additional observations from a re-analysis of the deposited data

Results flagged for a closer look

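The effect of a metal on a member differed between consecutive time points, by the test of the difference itself in edgeR, in 10 cases. With cadmium, these were MT2A (1.55), MT1E (2.00), and MT1X (2.41) from 1.5 to 3 h, MT1E (1.33) and MT1X (1.40) from 3 to 6 h, MT1E (1.05) from 6 to 12 h, and MT2A (1.05) from 12 to 24 h, each as a difference of LFCs. With arsenic, they were MT1E (0.68) from 6 to 12 h and MT2A (1.14) from 12 to 24 h, and with mercury MT2A (-1.14) from 6 to 12 h.

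The first 3 of these, and MT1E from 3 to 6 and from 6 to 12 h of cadmium, passed whichever library was left out. MT2A from 12 to 24 h of cadmium (adjusted p = 0.0476) was lost in 11 of 12 such fits, with adjusted p = 0.0545 to 0.271 and a difference of 0.83 without nt 12 h replicate 1. MT1X from 3 to 6 h of cadmium (adjusted p = 0.0406) was lost in 9 of 12 (adjusted p = 0.0527 to 0.246), with a difference of 1.02 without nt 6 h replicate 3. MT1E from 6 to 12 h of arsenic (adjusted p = 0.0148) was lost without nt 6 h replicate 3, nt 12 h replicate 3, or arsenic 6 h replicate 1 or 2 (adjusted p = 0.0668 to 0.155). MT2A from 12 to 24 h of arsenic was lost without nt 12 h replicate 1 or arsenic 24 h replicate 1 or 2 (adjusted p = 0.0551 to 0.0693), and MT2A from 6 to 12 h of mercury without nt 12 h replicate 1 or mercury 6 h replicate 1 or 2 (adjusted p = 0.0558 to 0.0847). Between 12 and 24 h, the non-treated MT2A mean fell from 3788 to 1749 CPM. The MT2A mean was 23930 and 22810 CPM with cadmium at these times, and 5544 and 5659 CPM with arsenic.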

How the results depend on the processing

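Of 147 member values, 86 passed in the main analysis. MT1B entered only with the 9 of its values that passed, so that their passing was set beforehand and is no result. The counts in this section include them. No value that passed changed direction under any alternative run. RLE factors, library totals, and scaling without the metallothionein genes left each on its side of the threshold. Without a filter, 20 gained and 1 (MT1B with cadmium at 6 h) lost significance, with only the libraries compared 9 gained and 5 lost, and with DESeq2 3 gained, while it gave no adjusted p for MT1B in 37 comparisons, among them cadmium at 6 and 12 h, and for MT1X in 1. The cause was not tested. An LFC beyond 1 removed 14. Members that differ between arsenic and mercury were 9, and 3 with an LFC beyond 1. Steps that passed with arsenic were 2, 5 without a filter, 1 with an LFC beyond 1, and 1 to 3 with a library left out. With mercury there was 1, 3 without a filter, and 0 to 3 with a library left out. In non-treated cells 1 member differed, 3 without a filter, 3 with only the libraries compared, 0 with an LFC beyond 1, and 0 to 2 with a library left out.

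Leaving out a replicate number moved the ratio of MT1X to MT1E to between 0.093 and 0.422 with arsenic and -0.033 and 0.392 with mercury, MT2A to MT1E with arsenic to between -0.417 and -0.289, and MT2A to MT1X to between -0.757 and -0.382 with arsenic and -0.77 and -0.42 with mercury. By library totals the summed level was 2887 CPM in nt 1.5 h, 2926 in nt 3 h, and 29850 with cadmium at 12 h. Without the non-treated groups, SLC30A1 and CSRP1, the MTF1 targets, left the 5 genes most like the members for ZNF324 and SNX27 (named after their values were seen), and 3 remained.

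Over all genes tested, deviations of same-numbered metal and non-treated libraries correlated at -0.278 to 0.0837 over 45 pairs. This check takes all genes at once and cannot show whether single members share a replicate effect. With a replicate block, members higher were 10 with arsenic, 15 with cadmium, and 13 with mercury, against 8, 15, and 12, and the other counts of members were as without it. In the main analysis, 12 of the 15 with cadmium were of MT2A, MT1E, and MT1X, and the rest of MT1B.

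With a library left out, a group of 2 was tested with the spread pooled over all groups, and 13 calls were lost and 8 gained in at least 1 such fit. At this depth MT1M and MT1F could not be compared between metals, and MT1G only by its counts and bounds.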
